A study of Mus musculus with 6 samples.

Results

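Of 12393 mouse genes measured on 6 arrays, 4069 (32.8%) had a difference between TCDD and dioxane of the same sign in all 3 matched pairs of arrays, and these genes are described here. Each pair set 1 TCDD array against a dioxane array of the same cell source: thymocytes, emigrants 1 and emigrants 2. Both arrays of emigrants 2 carry the number 2 in their titles, while of emigrants 1 only the TCDD array is numbered and the unnumbered dioxane array was taken as its partner. All cells came from C57BL/6 fetal thymus lobes, explanted at day 15 after conception and cultured on inserts with 5 to 6 lobes each for 6 days, to an age of day 21. The medium held 10 nM TCDD (2,3,7,8-tetrachlorodibenzo-p-dioxin) or solvent and was renewed every 2 days. The labels give 0.1% dioxane by volume for the thymocyte control and the solvent's name alone for the emigrant controls. Thymocytes were released from inside the lobes, and emigrants were recovered from buffer flushed over them. In both cases CD4-CD8- (double-negative, DN) cells were enriched with magnetic beads to a purity above 95%, and RNA of pooled cells went to 1 array per sample. The design therefore holds 1 thymocyte array and 2 emigrant arrays for each treatment, and the labels do not state whether any arrays share a culture. The p-values thus cover only the variation among these arrays, part of which may be technical.

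TCDD is a ligand of the aryl hydrocarbon receptor (AHR), a transcription factor that waits in the cytoplasm bound to heat shock protein 90. After binding its ligand the receptor enters the nucleus, pairs with ARNT and binds DNA elements with a GCGTG core near genes such as those of the cytochrome P450 family. The receptor's repressor and TIPARP, both products of target genes, dampen the response. The youngest T-cell precursors of the thymus are DN cells, which divide, rearrange the T-cell receptor beta gene and then take up CD4 and CD8, and TCDD is known for shrinking the thymus.

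Signals are given on the log2 scale, so 1 unit is a doubling. The highest of 27 bacterial control probe sets read 4.32 to 4.92 on the 6 arrays, and a gene below that value on its array was not distinguishable from background. Cd4 read 4.93 to 5.19 and Cd8b1 3.53 to 4.36 over the 6 arrays, near or below those controls. The emigrants 1 arrays stood apart from the other 4 in Thy1 and Csf1r. Thy1, a surface protein of T-lineage cells, read 5.69 with dioxane and 4.90 with TCDD there, against 8.60 to 9.70 on the other arrays. Csf1r, the receptor for the macrophage growth factor, read 12.59 and 12.39 there, against 7.54 to 10.47 elsewhere. The mean signal of the DN2 and DN3 T-lineage list was 6.35 and 6.12 in emigrants 1, against 6.80 to 8.17 elsewhere. The macrophage and dendritic list set emigrants 1 less apart, with means of 7.98 and 8.57. On that list the TCDD array of emigrants 2 had a mean of 8.33, and the remaining arrays 5.48 to 6.79. Counts of list members are also given without emigrants 1, beside the shares of all genes. RNA quality was read from the actin controls: TCDD arrays had the larger 3' minus 5' signal in every pair, by 0.67 in thymocytes, 0.71 in emigrants 1 and 0.36 in emigrants 2, and its part in the differences below was not tested.

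The same-sign genes comprised 1909 that were higher with TCDD in all 3 pairs (15.4% of all genes) and 2160 that were lower in all 3 (17.4%). Their differences were mostly small. The median of the paired difference was 0.33 for the higher genes and -0.28 for the lower genes, and only 160 and 120 genes respectively differed by at least 0.5 in every pair. A difference of at least 1 unit in every pair, which is at least 2-fold, was reached by 22 genes upward (0.178% of all genes) and 16 downward (0.129%). In a limma fit with the pair as a block, none of the 12393 genes was called at an adjusted p under 0.05 in either direction (percent called 0 both ways), and the smallest adjusted p was 0.282. At an unadjusted p under 0.05 there were 685 higher genes (5.53%) and 649 lower genes (5.24%). The median standard error of a difference was 0.15. With 3 pairs, an exact two-sided sign-flip test of a single gene cannot go below p = 0.25. The same value, 0.25, is the share of genes whose 3 signs would agree if signs were independent and equally likely. The share found was 32.8%. The sign rule is therefore a description and not a test.

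**Figure D1:**
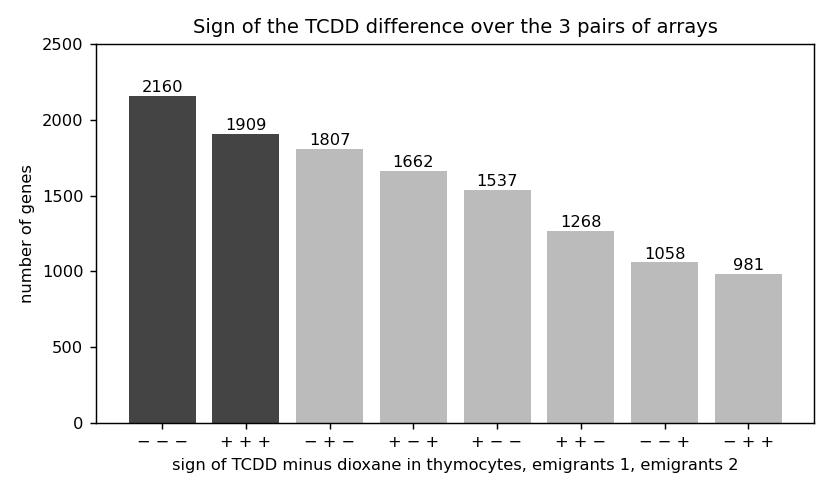
Number of genes (bars) with each combination of signs of the TCDD minus dioxane difference in thymocytes, emigrants 1 and emigrants 2, in that order; dark bars have the same sign in all 3 pairs. The all-lower pattern (2160 genes) and the all-higher pattern (1909) were the most frequent, and 11 genes with a difference of exactly 0 in a pair are left out.

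The 3 pairs did not contribute alike. Across genes, the differences of thymocytes and emigrants 2 correlated at r = 0.53, those of thymocytes and emigrants 1 at 0.10 and those of the emigrant pairs at 0.14; these are descriptions over 12393 genes, which are not independent. The sign matched in 60.8% of genes for thymocytes and emigrants 2, in 51.6% for thymocytes and emigrants 1 and in 53.2% for the emigrant pairs. Emigrants 1 was the odd pair in 3469 genes, thymocytes in 2518 and emigrants 2 in 2326. Leaving out emigrants 1 gave 3571 genes higher and 3968 lower in both remaining pairs, of which 118 and 118 differed by at least 1 unit in both. Among genes at least 2-fold higher in thymocytes, 189 of 351 were higher in all 3 pairs (53.8%); the share was 50.8% for emigrants 2 and 41.0% for emigrants 1. Same-sign genes were more frequent at high signal, with 11.2% higher and 15.5% lower in the dimmest 3099 genes and 19.0% and 21.7% in the brightest 3098.

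**Figure D2:**
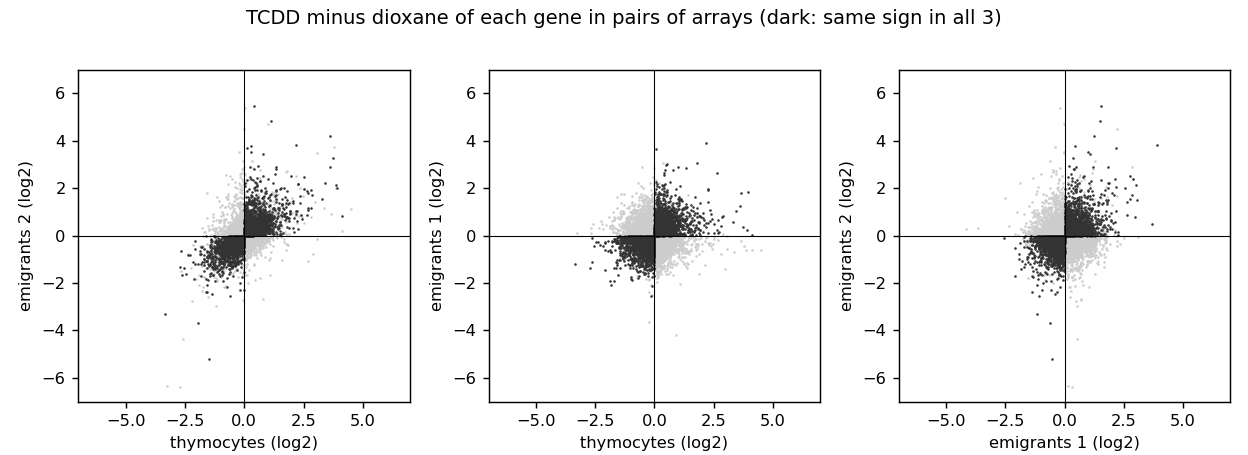
TCDD minus dioxane difference (log2) of each gene in thymocytes against emigrants 2, thymocytes against emigrants 1 and emigrants 1 against emigrants 2; dark points have the same sign in all 3 pairs. The cloud is drawn out along the diagonal for thymocytes and emigrants 2 (r = 0.53) and is near round in the panels with emigrants 1 (0.10 and 0.14).

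Known AHR target genes were higher in all 3 pairs in 8 of 17 measured members (47.1%, against 15.4% of all genes) and lower in all 3 in none, with a median difference of 0.53 against -0.02 over all genes. Cyp1b1, a monooxygenase that metabolises aromatic hydrocarbons and steroids, read 6.73 with dioxane and 10.35 with TCDD in thymocytes, 4.66 and 5.90 in emigrants 1, and 4.72 and 8.95 in emigrants 2. Each TCDD array exceeded its own dioxane array, while the TCDD value of emigrants 1 lay below the dioxane value of thymocytes, so the groups overlapped. The paired difference was 3.03 ± 0.61 (SE, n = 3 pairs; limma's adjusted p = 0.284). Scin, an actin-severing protein of the gelsolin family, read 6.37 and 10.30 in thymocytes, 5.21 and 7.06 in emigrants 1, and 4.55 and 6.57 in emigrants 2. All 3 TCDD values exceeded all 3 dioxane values, and the mean difference corresponds to a fold of 6.07 (SE 0.45 on the log2 scale; adjusted p = 0.284).

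Cyp1a1, the classical inducible monooxygenase of this receptor, had dioxane values of 3.99, 3.96 and 3.84 in thymocytes, emigrants 1 and emigrants 2, all below the bacterial controls. With TCDD it read 7.88 in thymocytes and 5.98 in emigrants 2, but 4.22 in emigrants 1, where it again lay below them. Its same sign in emigrants 1 thus rests on 2 background values. Selenbp1, a selenium-binding protein, read 3.68 and 5.29 in thymocytes, 5.93 and 7.16 in emigrants 1 and 3.59 and 4.94 in emigrants 2, and its dioxane values in thymocytes and emigrants 2 lay below the controls. Xdh, the xanthine dehydrogenase of purine breakdown, differed by 0.80, 0.94 and 1.60, also with the dioxane values of thymocytes and emigrants 2 below the controls. Serpinb2, an inhibitor of plasminogen activators, differed by 0.15, 1.41 and 1.42, with both thymocyte values and the dioxane value of emigrants 2 below the controls. Nfe2l2, the transcription factor of the antioxidant response, differed by 0.37, 0.12 and 1.11. The eighth member, Gsta2, stayed below the bacterial controls on all 6 arrays.

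On their brightest probe sets, the feedback genes of the pathway missed the same-sign set through emigrants 1. Ahrr, the receptor's repressor, read 4.05 with dioxane and 7.84 with TCDD in thymocytes. It differed by 3.79 there, by 3.75 in emigrants 2 and by -0.42 in emigrants 1, where it read 4.45 and 4.04. Its dioxane values in thymocytes and emigrants 2 and its TCDD value in emigrants 1 lay below the bacterial controls. Its sign in emigrants 1 thus rests on a background value. Tiparp, the ADP-ribosyltransferase, read 6.29 and 9.35 in thymocytes, 6.33 and 9.82 in emigrants 2, and 6.66 on both emigrants 1 arrays. Of the 2 other probe sets of Tiparp, 1 was higher in all 3 pairs. Nqo1, a quinone reductase, differed by 0.82, -0.76 and 0.32 in thymocytes, emigrants 1 and emigrants 2. Without emigrants 1, 11 of 17 target genes were higher in both remaining pairs, against 28.8% of all genes. The receptor's own transcript stood on the other side. Ahr read 9.10 and 8.93 in thymocytes, 8.05 and 7.09 in emigrants 1 and 9.08 and 8.56 in emigrants 2, lower with TCDD in each pair by -0.55 ± 0.19 on average (adjusted p = 0.418). Hsp90aa1, the chaperone that holds the unliganded receptor, differed by -0.47, -0.60 and -0.79, but of its 2 other probe sets 1 was higher in all 3 pairs and none lower. Bach1, a repressor that competes at antioxidant elements, differed by -0.41, -0.69 and -0.27. These were the 3 lower members of 11 in the receptor complex and its partners (27.3%, against 17.4% of all genes), and no member was higher in all 3 pairs. The median of that list was -0.16, and 0.01 without emigrants 1. Arnt, the DNA-binding partner, lay below the bacterial controls on 5 of 6 arrays.

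**Figure D3:**
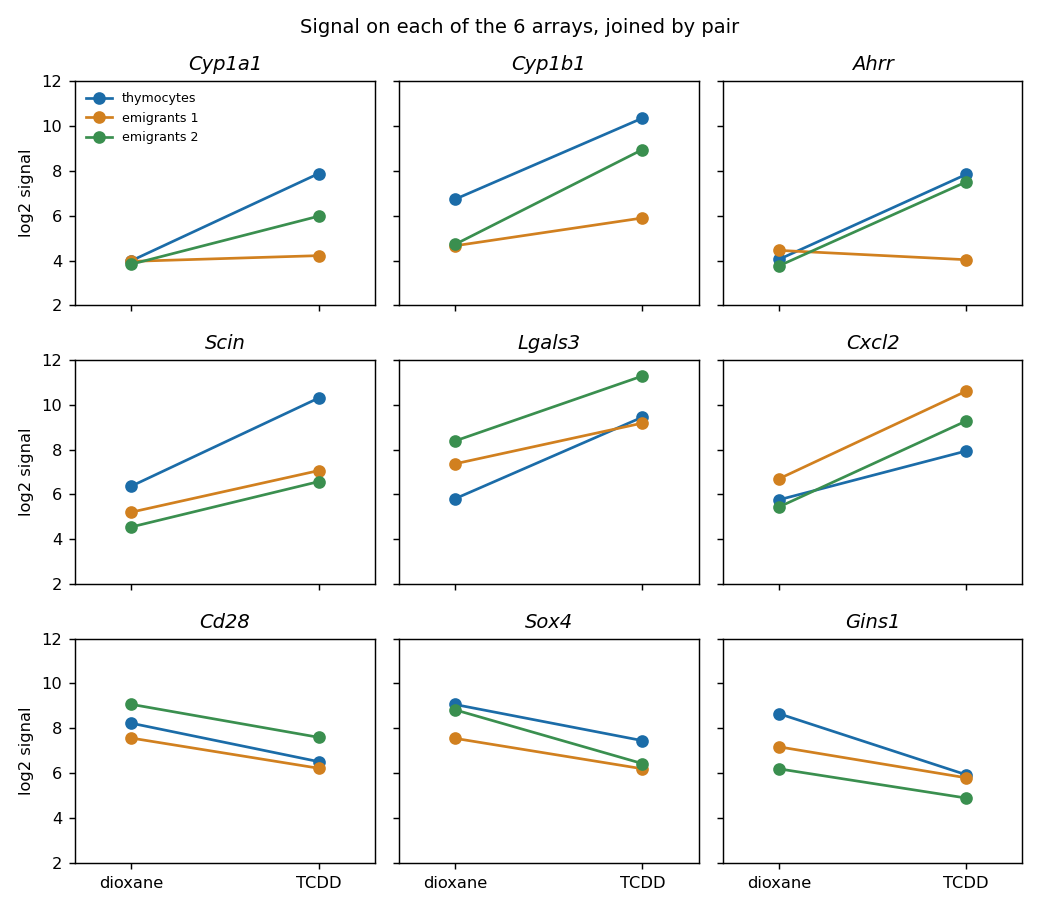
Log2 signal of 9 genes on the 6 arrays; a line joins the dioxane and the TCDD array of a pair. Cyp1b1, Scin, Lgals3 and Cxcl2 slope up and Cd28, Sox4 and Gins1 slope down in every pair, while Ahrr slopes up in thymocytes and emigrants 2 (3.79 and 3.75) and down in emigrants 1 (-0.42), and Cyp1a1 is nearly level in emigrants 1 (0.25). In emigrants 1, both Cyp1a1 values and the TCDD value of Ahrr lie below the bacterial controls.

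5 promoters of higher genes with the GCGTG core of the receptor's DNA element are shown so that the motif can be read beside the response; they were chosen among the higher genes for holding it. They are the 250 bases before the annotated start from RefSeq (GRCm38.p6), each on the strand of its gene, 5′ to 3′, with the core in capitals (GCGTG, or CACGC where it lies on the opposite strand). Cyp1a1 lies at chr9:57697363-57697612 on the plus strand, Cyp1b1 at chr17:79715062-79715311 on the minus strand, Scin at chr12:40134229-40134478 on the minus strand, Lgals3 at chr14:47373610-47373859 on the plus strand and Cxcl2 at chr5:90903649-90903898 on the plus strand.
Cyp1a1: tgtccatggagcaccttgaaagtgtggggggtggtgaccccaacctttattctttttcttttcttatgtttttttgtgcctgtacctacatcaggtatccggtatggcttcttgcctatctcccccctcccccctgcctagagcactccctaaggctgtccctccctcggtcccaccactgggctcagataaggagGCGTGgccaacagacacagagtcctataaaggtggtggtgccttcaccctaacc
Cyp1b1: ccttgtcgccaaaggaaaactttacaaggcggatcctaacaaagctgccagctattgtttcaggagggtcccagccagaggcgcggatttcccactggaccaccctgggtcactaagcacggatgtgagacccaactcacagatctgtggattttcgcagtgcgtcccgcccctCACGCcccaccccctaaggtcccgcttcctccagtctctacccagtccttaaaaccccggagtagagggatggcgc
Scin: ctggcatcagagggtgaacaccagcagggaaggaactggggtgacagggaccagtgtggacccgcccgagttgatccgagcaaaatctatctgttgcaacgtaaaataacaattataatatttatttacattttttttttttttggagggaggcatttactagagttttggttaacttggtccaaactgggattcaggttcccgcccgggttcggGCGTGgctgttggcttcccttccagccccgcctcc
Lgals3: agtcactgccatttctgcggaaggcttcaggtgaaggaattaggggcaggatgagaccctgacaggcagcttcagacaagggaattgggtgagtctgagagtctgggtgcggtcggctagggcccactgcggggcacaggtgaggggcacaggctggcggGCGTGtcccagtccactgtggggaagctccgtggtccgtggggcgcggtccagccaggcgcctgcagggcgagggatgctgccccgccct
Cxcl2: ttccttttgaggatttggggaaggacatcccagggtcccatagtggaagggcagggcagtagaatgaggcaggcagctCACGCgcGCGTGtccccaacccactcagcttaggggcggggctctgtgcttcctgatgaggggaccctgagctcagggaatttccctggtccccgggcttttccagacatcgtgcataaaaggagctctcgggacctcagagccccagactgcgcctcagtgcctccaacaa
The Cxcl2 window holds the core 2 times and the other windows once. Over windows of 300 bases (250 before to 50 after the start), the core on either strand was found in 45.3% of 12559 windows of all genes, 44.3% of windows of genes higher in all 3 pairs and 49.8% of those of genes lower in all 3. It was found in 9 of 19 windows of the genes higher by at least 1 unit in every pair (47.4%) and in 9 of 16 of those lower by as much (56.2%). The longer motif TNGCGTG was found in 7.01%, 6.78% and 8.08% of windows of all, higher and lower genes. The share of windows with the core was thus close to that of all genes in the higher set. A match describes the letters only, and elements outside these windows were not searched.

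The genes highest above dioxane in their weakest pair included secreted and cytoskeletal proteins of myeloid and activated cells. Cxcl2, a chemokine that attracts neutrophils, read 5.76 with dioxane and 7.94 with TCDD in thymocytes, 6.69 and 10.60 in emigrants 1 and 5.44 and 9.27 in emigrants 2. All 3 TCDD values exceeded all 3 dioxane values, and the average difference of 3.31 ± 0.39 (a fold of 9.91; adjusted p = 0.282) was the only one among the 1909 higher genes to exceed 2 units in every pair. Lgals3, a galactose-binding lectin, read 5.81 and 9.45 in thymocytes, 7.36 and 9.18 in emigrants 1 and 8.38 and 11.28 in emigrants 2 (2.78 ± 0.36). Saa3, an acute-phase protein of macrophages, read 5.82 and 7.62, 7.73 and 10.78, and 5.35 and 6.87 in the same order (2.12 ± 0.33). For Lgals3 all TCDD values exceeded all dioxane values, whereas for Saa3 the groups overlapped.

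Other members of this leading set were cell-surface, vesicle and signalling genes. Cd9, a tetraspanin, was higher by 1.34, 2.84 and 1.69 in thymocytes, emigrants 1 and emigrants 2, and Capg, an actin-capping protein, by 1.32, 1.19 and 2.92. The thymocyte dioxane value of Capg (4.37) lay below the bacterial controls. Pf4, a chemokine of platelets and megakaryocytes, was uneven, at 1.15, 1.48 and 4.83 (2.49 ± 0.78; adjusted p = 0.379). Rgs1, a brake on chemokine receptor signalling, averaged 1.70 ± 0.27. Ehd1, which recycles endocytosed receptors, averaged 1.61 ± 0.19, and Tmem176b, a membrane protein of dendritic cells, 1.54 ± 0.21. Ifi30, a lysosomal thiol reductase for antigen processing, averaged 1.48 ± 0.17. Even differences were seen for Klf4, a transcription factor linked to growth arrest (1.33, 1.17 and 1.54), Dhrs7, a short-chain dehydrogenase (1.25, 1.14 and 1.17), and Tshz1, a zinc-finger homeobox factor (1.22, 1.16 and 1.11). The remaining members of the 22 were Ctsl, a lysosomal protease (1.63 ± 0.23), Tgm2, a protein cross-linking enzyme (1.28 ± 0.16), Vim, an intermediate filament protein (1.44 ± 0.20), Serpinb1a, an inhibitor of neutrophil proteases (2.23 ± 0.46), Ifitm1, an interferon-induced membrane protein (1.57 ± 0.26), Cxcl1, a neutrophil chemokine (2.11 ± 0.39), and Selenbp1. The emigrant dioxane values of Cxcl1 (4.24 and 4.08) lay below the bacterial controls.

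**Figure D4:**
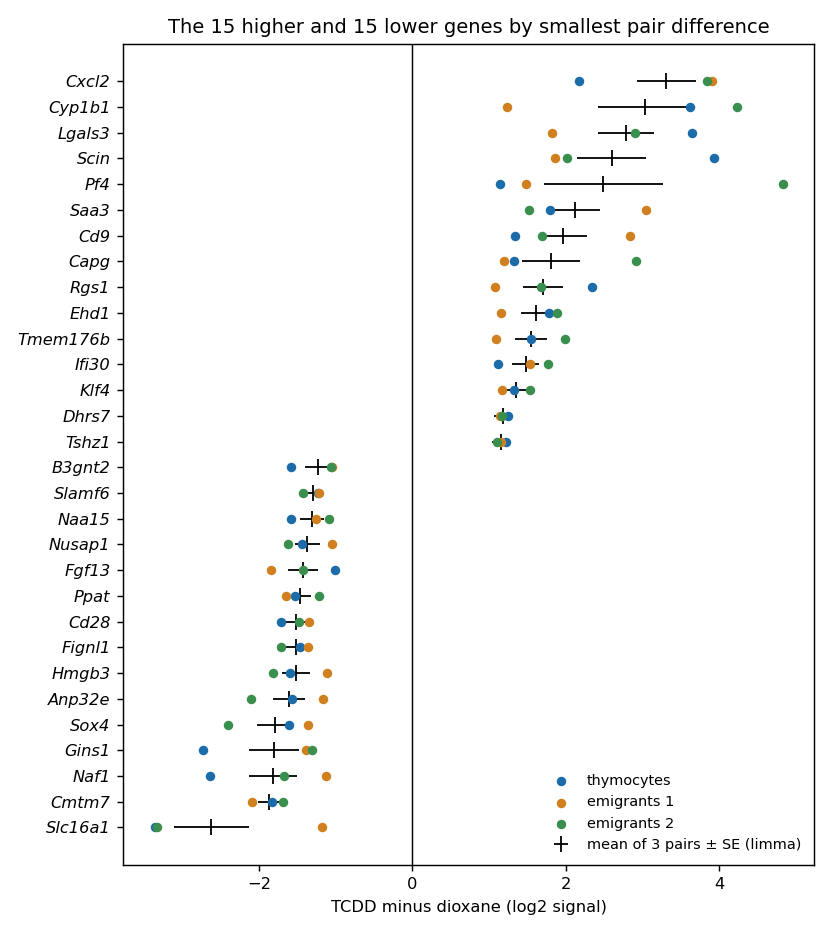
TCDD minus dioxane difference (log2) of the 15 higher and 15 lower genes with the largest weakest-pair difference among the brighter genes (mean at least the median of all genes); coloured points are the 3 pairs, the black tick and line the mean ± SE of the limma fit. Cxcl2 (3.31) and Slc16a1 (-2.62) mark the ends, and Pf4 is spread from 1.15 to 4.83, while the points of Dhrs7 lie between 1.14 and 1.25.

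The lower genes of the same rule included T-cell, chromatin and replication genes. Cmtm7, a membrane protein of the MARVEL family in lymphocytes, read 8.25 with dioxane and 6.42 with TCDD in thymocytes, 7.72 and 5.62 in emigrants 1 and 7.45 and 5.76 in emigrants 2. All 3 TCDD values lay below all 3 dioxane values, and the difference of -1.87 ± 0.14 had the smallest unadjusted p of all genes (6.76e-05; adjusted p = 0.282). Cd28, the costimulatory receptor of T cells, differed by -1.71, -1.35 and -1.47, though its TCDD value in emigrants 2 lay above the dioxane value of 7.56 in emigrants 1, so the groups overlapped (-1.51 ± 0.14). Slamf6, a homophilic receptor of lymphocytes, differed by -1.23, -1.22 and -1.42. Sox4, a transcription factor of lymphoid progenitors, read 9.06 and 7.45, 7.55 and 6.19, and 8.82 and 6.43 (-1.79 ± 0.24). For Sox4 the TCDD values lay below all dioxane values.

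Several of the lower genes serve DNA and RNA. Gins1, a subunit of the replicative helicase, read 8.65 and 5.93 in thymocytes, 7.17 and 5.79 in emigrants 1 and 6.19 and 4.89 in emigrants 2 (-1.80 ± 0.32). Fignl1, an ATPase of homologous recombination, averaged -1.51 ± 0.14, Nusap1, a spindle protein, -1.37 ± 0.16 and Anp32e, a chaperone of histone H2A.Z, -1.61 ± 0.21. Hmgb3, a chromatin protein of haematopoietic progenitors, averaged -1.51 ± 0.18. Naf1, an assembly factor of small nucleolar RNPs, averaged -1.81 ± 0.31, and Naa15, a subunit of an N-terminal acetyltransferase, -1.31 ± 0.15. Ppat, the first enzyme of purine synthesis, averaged -1.46 ± 0.15. Slc16a1, a lactate and pyruvate transporter, read 7.73 and 4.37 in thymocytes, 7.61 and 6.44 in emigrants 1 and 7.62 and 4.30 in emigrants 2 (-2.62 ± 0.48), and its TCDD values in thymocytes and emigrants 2 lay below the bacterial controls, so the size of these differences is not settled. B3gnt2, a glycosyltransferase, averaged -1.23 ± 0.16 and Fgf13, an intracellular FGF-like protein, -1.42 ± 0.20, and Qser1 completed the 16 with -1.59 ± 0.21. The TCDD values of Fgf13 in emigrants 2 (4.24) and of Qser1 in emigrants 1 (4.29) lay below the bacterial controls.

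The 1-unit limit separated close values. Cxcl1 was just inside it with a weakest pair of 1.01, and Ifit1 just outside with 0.985. Fgf13 was just inside with 1.00, and Srsf6, a splicing factor, just outside with 0.993. Other probe sets of the same genes gave a partial check of the sign. Of 1190 other probe sets of higher genes, 29.7% were also higher in all 3 pairs, against 10.8% of 5217 other probe sets of genes with mixed signs. For lower genes 30.3% of 1580 were also lower in all 3, against 16.2%. Among the 30 named genes 15 had other probe sets, and 10 of these 24 probe sets kept the sign. They included 1 of 2 for Cyp1b1, 2 of 3 for Ehd1, 2 of 5 for Sox4 and the single other probe set of Cd28, Slamf6, Ppat and Tshz1, while those of Cmtm7, Fignl1, Klf4, Nusap1, Anp32e, B3gnt2 and Fgf13 did not, that of Fignl1 being higher in all 3 pairs.

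Genes of phagocytes, lysosomes and inflammation were higher in all 3 pairs more often than the 15.4% of all genes. In bulk RNA, more cells of a type and more RNA per cell cannot be told apart. Of 22 lysosome and cathepsin genes, 14 were higher in all 3 pairs (63.6%) and 1 was lower, Ctse, an endosomal aspartic protease (-0.50 ± 0.12). The list median was 0.56. Cstb, an inhibitor of cathepsins, differed by 0.40, 1.75 and 1.52, Ctsa, a carboxypeptidase, by 0.47, 1.12 and 1.05, Ctsz, another carboxypeptidase, by 0.07, 1.49 and 1.63, and Npc2, a cholesterol carrier of the lysosome, by 0.53, 0.79 and 0.59. Of 27 macrophage and dendritic genes, 12 were higher and none lower in all 3 pairs, with medians of 0.17, 0.13 and 1.65 in thymocytes, emigrants 1 and emigrants 2. Ms4a6d, a membrane protein of macrophages, differed by 0.30, 2.12 and 2.38, Cst3, a secreted protease inhibitor, by 0.44, 1.39 and 1.31, and C1qb, a complement chain, by 0.44, 0.67 and 1.93. The thymocyte dioxane value of Ms4a6d (4.60) lay below the bacterial controls. Some higher members had a weakest pair near 0, such as Trem2 (0.01), Ctss (0.03) and C1qc (0.04). The other 15 members were mixed in sign, among them Csf1r (0.03, -0.20 and 1.83), Adgre1 (-0.41, -0.34 and 1.65) and Cd68 (-0.37, 0.13 and 2.28). The summed linear signal of this list was 2052, 23486 and 7254 with dioxane and 4109, 26998 and 20741 with TCDD, and of its markers Itgam was below the bacterial controls on all 6 arrays. Its part in the other lists of this paragraph and the next was not tested.

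Of 15 neutrophil granule genes, 5 were higher and none lower in all 3 pairs. S100a8 read 4.73 and 5.23 in thymocytes, 9.55 and 11.39 in emigrants 1 and 7.42 and 9.64 in emigrants 2, and its partner S100a9 differed by 0.52, 3.02 and 2.12. Anxa3, a phospholipid-binding protein of neutrophils, differed by 0.79, 2.76 and 2.50. The other 10 members were mixed in sign, among them Ngp (-0.73, -0.11 and 1.54), Mpo (0.13, 0.23 and -0.20) and Ctsg (-0.19, 2.21 and -0.02). The summed signal of the list was 652, 13559 and 1220 with dioxane and 634, 21307 and 4284 with TCDD. Cytokine and chemokine genes were higher in all 3 pairs in 9 of 25 members and lower in none. Ccl3, a chemokine for monocytes, differed by 0.78, 1.06 and 3.46, and Il1b, an inflammatory cytokine, by 0.24, 1.75 and 0.70.

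Interferon-response genes were higher in 12 of 26 members (46.2%) and lower in none, with a median of 0.37. Ifit1, which binds foreign RNA, differed by 1.36, 0.98 and 1.93, Ifitm3, a restriction factor at membranes, by 0.27, 1.21 and 1.71, Bst2, which tethers virus particles, by 1.16, 0.68 and 0.71, and Ifi35 by 0.56, 0.84 and 0.76. Immediate-early and stress genes were higher in 13 of 28 members (46.4%) and lower in 2, and their median was alike in the pairs, at 0.33, 0.32 and 0.23. Dusp1, a phosphatase of MAP kinases, was the most even at 0.54, 0.70 and 0.75. Fos, a subunit of AP-1, differed by 0.63, 0.38 and 1.20, Ier2 by 1.56, 0.60 and 0.43, Egr2, a zinc-finger factor, by 0.48, 1.66 and 1.72, and Atf3, a stress-induced factor, by 0.21, 1.83 and 1.50. The lower members were Dusp2, a phosphatase of T-cell activation (-0.45 ± 0.14), and Ddit4, an inhibitor of mTOR signalling (-0.76 ± 0.22). Without emigrants 1, the members higher in both remaining pairs numbered 15 of 22 for lysosome, 18 of 27 for macrophage and dendritic, 6 of 15 for neutrophil, 16 of 25 for cytokine, 17 of 26 for interferon-response and 18 of 28 for immediate-early genes, against 28.8% of all genes. The median of the neutrophil list was then 0.48, against 0.75 over all 3 pairs.

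**Figure D5:**
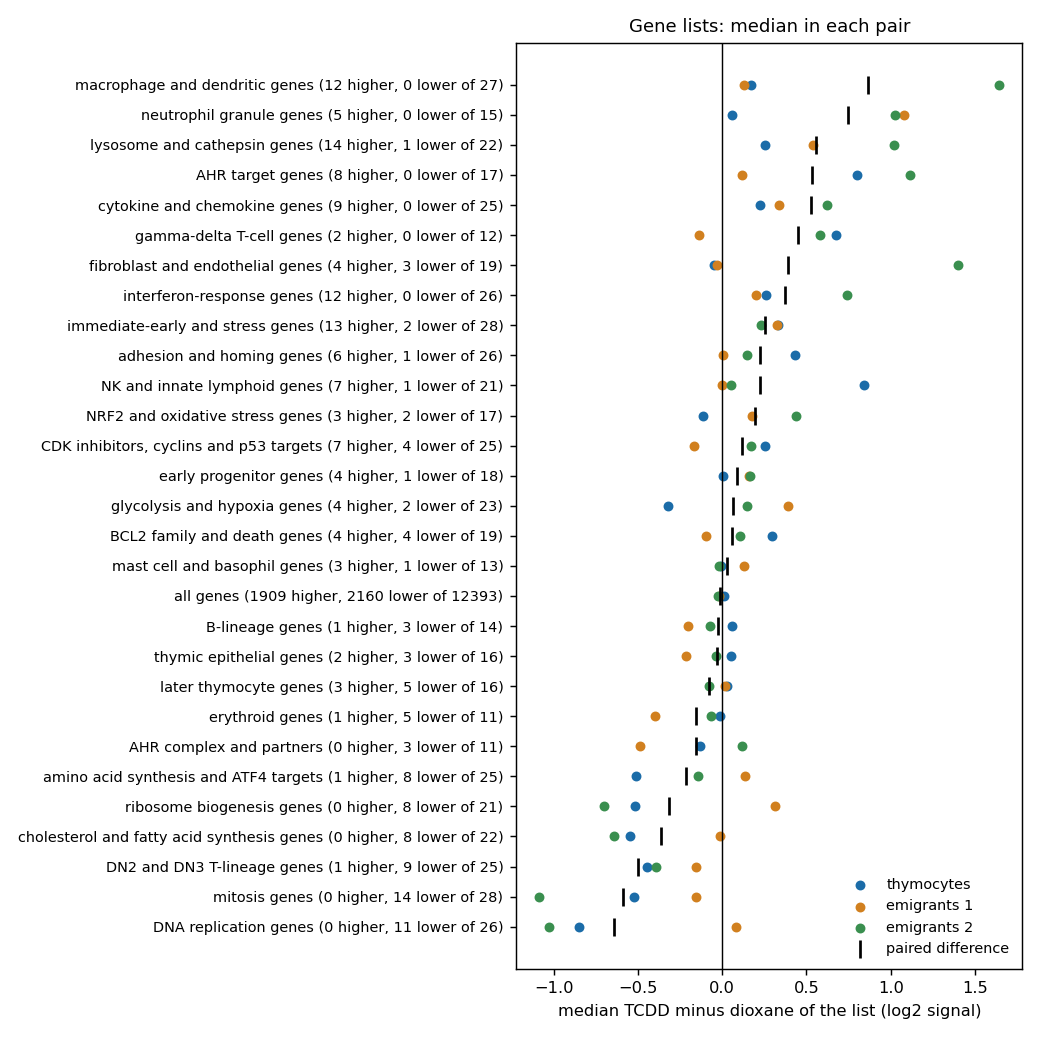
Median TCDD minus dioxane difference (log2) of each gene list in the 3 pairs (coloured points) and of the paired difference (black tick); the label gives how many members were higher or lower in all 3 pairs of how many measured. Macrophage (0.86), neutrophil (0.75) and lysosome (0.56) lists lie at the top, and mitosis (-0.59) and DNA replication (-0.64) at the bottom, where emigrants 1 lies near 0.

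Genes of the DN2 and DN3 T-cell stages were lower in all 3 pairs in 9 of 25 members (36.0%, against 17.4% of all genes) and higher in 1. Cd24a, a surface glycoprotein of immature thymocytes, read 10.86 and 8.90 in thymocytes, 11.85 and 11.22 in emigrants 1 and 10.78 and 7.08 in emigrants 2. Il2ra, the interleukin-2 receptor alpha chain of these stages, differed by -0.94, -1.16 and -0.26, with the TCDD value of emigrants 1 below the bacterial controls. The other probe set of Il2ra was of mixed sign over the pairs and higher on average. Bcl11b, the T-lineage commitment factor, differed by -1.35, -0.18 and -0.90, with both emigrants 1 values below the bacterial controls. Lat, an adaptor of the T-cell receptor, differed by -1.34, -0.05 and -1.10, Thy1 by -1.10, -0.79 and -0.39, and Tcf12, an E protein, by -1.03, -0.16 and -1.69. The TCDD value of Thy1 in emigrants 1 (4.90) lay just below the bacterial controls. Ptcra, the pre-T-cell receptor alpha chain, differed by -0.03, -0.56 and -2.29. Dtx1, the member higher in all 3 pairs, differed by 0.48, 0.14 and 0.11. The other 15 members were mixed in sign. Among these Cd3e differed by -0.44, 0.34 and 0.32, Il7r by 0.30, -1.31 and 0.12 and Hhex by 1.01, -0.62 and -0.17. On their brightest probe sets, the recombination genes Rag1 and Dntt had large negative differences in thymocytes and emigrants 2, but not in emigrants 1. They so missed the rule. Rag1, of the V(D)J recombinase, differed by -2.70 in thymocytes, 0.31 in emigrants 1 and -6.38 in emigrants 2. Both emigrants 1 values of Rag1 and its TCDD value in emigrants 2 lay below the bacterial controls. Its sign in emigrants 1 thus rests on background, and the size of its difference in emigrants 2 is not settled. Dntt, the terminal transferase, differed by -3.25, 0.13 and -6.36, but of its 2 other probe sets 1 was lower in all 3 pairs. Without emigrants 1, 16 of 25 members were lower in both remaining pairs, against 32.0% of all genes.

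Among 21 NK and innate lymphoid genes, 7 were higher in all 3 pairs (33.3%, against 15.4% of all genes) and 1 was lower. The list median rested on thymocytes, at 0.84 there, -0.00 in emigrants 1 and 0.05 in emigrants 2. Without the thymocyte pair, 8 members were higher and 8 lower (38.1% each), against 23.3% and 29.8% of all genes. Without emigrants 1, 10 were higher and 2 lower (47.6% and 9.52%), against 28.8% and 32.0% of all genes. Id2, an inhibitor of E proteins, differed by 2.68, 0.68 and 1.08, and Tyrobp, an adaptor of NK and myeloid receptors, by 1.35, 0.65 and 1.87. The granzymes, proteases of cytotoxic cells, were uneven: Gzmb differed by 4.11, 0.03 and 0.84 and Gzmc by 2.70, 0.13 and 1.82, with Gzmc below the bacterial controls on 3 arrays. Gzma, another granzyme, differed by -0.05, 0.70 and -2.74, and Eomes, a transcription factor of NK cells, by 0.15, -0.48 and -2.01. Trgv4, a variable segment of the gamma T-cell receptor, differed by 0.60, 0.95 and 0.78, while of its 2 other probe sets 1 was higher and 1 lower in all 3 pairs. Itgae, the integrin that binds E-cadherin, differed by 2.10, 0.44 and 0.17. Of 18 early progenitor genes, 4 were higher (22.2%, against 15.4% of all genes) and 1 lower. Without emigrants 1 the counts were 7 and 3 (38.9% and 16.7%), against 28.8% and 32.0% of all genes. Kit, the stem cell factor receptor, differed by 2.05, 0.17 and 1.47, and Cd93 by 1.06, 0.87 and 1.61, whereas Myb, a factor of dividing progenitors, differed by -1.50, -0.52 and -5.19. The other probe set of Kit was of mixed sign over the pairs and not higher on average.

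Many cell division genes were lower. Of 28 mitosis genes, 14 were lower in all 3 pairs and none higher, and of 26 DNA replication genes 11 were lower (42.3%, against 17.4% of all genes) and none higher. Cdc6, which loads the replicative helicase, read 7.40 with dioxane and 6.06 with TCDD in thymocytes, 7.44 and 6.49 in emigrants 1 and 6.36 and 4.69 in emigrants 2 (-1.32 ± 0.18; adjusted p = 0.282). Chek1, a checkpoint kinase, differed by -0.95, -1.15 and -1.53, and Mcm2, a helicase subunit, by -0.73, -0.47 and -0.69. Ncapg2, a condensin subunit, differed by -0.88, -1.04 and -1.59, Aurkb, a mitotic kinase, by -0.59, -0.46 and -1.52, Prc1, which bundles spindle microtubules, by -0.86, -0.48 and -0.87, and Mki67, the Ki-67 antigen of dividing cells, by -2.28, -0.38 and -0.81. The list medians were -0.85 for DNA replication and -0.52 for mitosis in thymocytes, -1.03 and -1.09 in emigrants 2, and 0.08 and -0.16 in emigrants 1. Without emigrants 1, 25 of 26 replication genes and 25 of 28 mitosis genes were lower in both remaining pairs, against 32.0% of all genes.

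Among regulators of arrest and survival, 7 of 25 cell cycle regulators were higher in all 3 pairs (28.0%, against 15.4% of all genes) and 4 lower (16.0%, against 17.4%), and of 19 BCL2 family and death genes 4 (21.1%) were higher and 4 lower. Without emigrants 1, 12 of 25 and 10 of 19 were higher in both remaining pairs, against 28.8% of all genes. Lower in both were 4 and 4 (16.0% and 21.1%), against 32.0% of all genes. Gadd45g and Gadd45b, stress sensors, differed by 1.88, 0.82 and 1.40 and by 0.50, 1.12 and 0.68, and Gadd45g was below the bacterial controls on 4 of 6 arrays. Btg1, an antiproliferative factor, differed by 1.50, 0.27 and 0.57. The D-type cyclins were opposite, Ccnd2 at 0.31, 0.41 and 0.68 and Ccnd3 at -0.47, -0.29 and -0.77. Birc3, an inhibitor of apoptosis induced by NF-kB, differed by 0.78, 0.60 and 0.83, and Bid, a proapoptotic BCL2 family member, by -1.85, -0.67 and -0.79.

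Biosynthetic lists were lower in part. Cholesterol and fatty acid synthesis genes were lower in all 3 pairs in 8 of 22 members (36.4%, against 17.4% of all genes) and higher in none. Cyp51, the lanosterol demethylase, differed by -0.64, -0.59 and -1.25, Scd2, a fatty acid desaturase, by -0.63, -0.55 and -1.64, and Idi1, the isopentenyl diphosphate isomerase, by -0.72, -0.18 and -2.17. Ribosome biogenesis genes were lower in 8 of 21 (38.1%) and higher in none, with Rrs1, an assembly factor, at -0.91, -0.45 and -1.14, Wdr12 at -1.68, -0.24 and -1.23 and Npm1, nucleophosmin, at -0.83, -0.26 and -0.49. Amino acid synthesis genes and targets of ATF4 were lower in 8 of 25 (32.0%) and higher in 1. Asns, the asparagine synthetase, differed by -2.65, -0.12 and -0.65, Slc7a5, a leucine transporter, by -2.07, -0.25 and -0.55, and Mthfd1, of folate metabolism, by -1.02, -0.35 and -1.05. Slc2a1, the glucose transporter GLUT1, ran the other way at 0.38, 2.64 and 1.43. Its glycolysis and hypoxia list had 4 higher and 2 lower members of 23 (17.4% and 8.7%), against 15.4% and 17.4% of all genes. Without emigrants 1, 16 of 22 cholesterol genes, 18 of 21 ribosome biogenesis genes and 14 of 25 amino acid genes were lower in both remaining pairs, against 32.0% of all genes. In the glycolysis and hypoxia list 5 were then higher and 6 lower (21.7% and 26.1%), against 28.8% and 32.0% of all genes.

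For lists of the other cells a DN fraction could hold, the shares of all genes were 15.4% higher and 17.4% lower in all 3 pairs, and 28.8% and 32.0% without emigrants 1. Of 11 erythroid genes 5 were lower in all 3 pairs (45.5%) and 1 higher, and 6 and 3 without emigrants 1. Tfrc, the transferrin receptor, differed by -0.95, -0.32 and -1.49, and Alas2, which starts heme synthesis in red cells, by -0.11, -1.73 and -0.07, with both emigrants 2 values below the bacterial controls. Fibroblast and endothelial genes were higher in 4 of 19 and lower in 3, with Fn1, fibronectin, at 0.45, 2.76 and 1.55 and list medians of -0.05, -0.03 and 1.40 in thymocytes, emigrants 1 and emigrants 2. Thymic epithelial genes were higher in 2 of 16 and lower in 3, B-lineage genes in 1 and 3 of 14, and mast cell and basophil genes in 3 and 1 of 13. Later thymocyte genes were higher in 3 and lower in 5 of 16, gamma-delta T-cell genes in 2 and 0 of 12, adhesion and homing genes in 6 and 1 of 26, and antioxidant genes in 3 and 2 of 17. Without emigrants 1, gamma-delta T-cell genes were higher in 8 of 12 members (66.7%) and lower in 2, with a median of 0.68, and adhesion and homing genes were higher in 14 of 26 (53.8%) and lower in 4. The counts higher and lower were then 7 and 3 for fibroblast and endothelial, 5 and 5 for thymic epithelial, 4 and 4 for B-lineage, 3 and 4 for mast cell and basophil, 5 and 8 for later thymocyte and 5 and 3 for antioxidant genes.

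The difference of the TCDD effect between emigrants and thymocytes was tested with an interaction term in limma, the pair kept as a block, on 1 residual degree of freedom. The thymocyte effect is a single pair without a replicate, so the error comes from the emigrant pairs and limma's shared variance. None of the 12393 genes was called (percent called 0; smallest adjusted p = 1.00), and 279 had an unadjusted p under 0.05. The median standard error of this difference was 0.37, so a same-sign gene can still differ in size between the sources. Gzmb was higher by 4.11 in thymocytes and by 0.03 and 0.84 in emigrants (interaction -3.67 ± 0.49). Cxcl2 was higher by 2.18 in thymocytes and by 3.91 and 3.84 in emigrants (1.70 ± 0.34), while for Cd93 the effects were 1.06, 0.87 and 1.61 (0.18 ± 0.47).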

How the data were processed

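The deposited values are log2 signals of 22690 Affymetrix probe sets on 6 arrays, summarised with RMA per the submitters' processing notes and from scanner files handled with the Bioconductor affy package per the series' design text; no version is named in the sources used. RMA corrects background, normalises across arrays, gives no detection calls and compresses the differences of dim genes. They were analysed without further normalisation. The 64 control probe sets were dropped, 691 named several genes and 1555 none in GEO's platform annotation, and 20380 carried 1 symbol. Each of 12393 genes was represented by its brightest probe set on average.

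The fit was limma 3.58.1 in R 4.3.3 (lmFit with pair and treatment, then eBayes; 2 residual degrees of freedom), with Benjamini-Hochberg adjustment over all genes and calls at an adjusted p under 0.05. The code was tested on simulated data. The emigrants 2 arrays share a number in the labels; the emigrants 1 dioxane array has none and was paired with TCDD number 1 as the remaining array, and the thymocyte pair is the sole one of its source. Deviations from the treatment means correlated across genes at r = 0.58, 0.56 and 0.57 within the pairs of thymocytes, emigrants 1 and emigrants 2, and at -0.44 to -0.05 between arrays of different pairs. Part of this reflects cell source. The deviations of a gene also cancel out within each treatment, so positive values within pairs force negative ones between them. The named genes are the 15 higher and 15 lower same-sign genes with the largest weakest-pair difference among genes whose mean is at or above the median (5.28), without clone and predicted names, and members of 28 gene lists. The 1-unit set is named in full. The members and lists were chosen with earlier results of these data known. Promoter windows came from RefSeq (GRCm38.p6) and were found for 9882 genes. Alternatives were median, quantile and cyclic loess normalisation, an intensity trend, only genes at least as bright as the median, every probe set on its own, other limits, fits without the block and the omission of each pair in turn; the omission of pairs from the same-sign counts was chosen after seeing the data. The number of arrays limits the precision.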

Additional observations from a re-analysis of the deposited data

Results flagged for a closer look

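The 3' minus 5' signal of the actin control probe sets, which no comparison uses, was larger on the TCDD array of all 3 pairs. The difference was 0.669 log2 units in thymocytes, 0.708 in emigrants 1 and 0.357 in emigrants 2. For Gapdh the same measure differed by -0.24, 0.85 and 0.06. The part of RNA quality in the same-sign genes was not tested.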

How the results depend on the processing

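With the pair as a block or not, no gene was called by limma in either direction, with smallest adjusted p-values of 0.282 with the replicate block, 0.483 with cell source in its place and 0.916 with treatment alone, and 1334, 659 and 538 genes at an unadjusted p under 0.05. Blocking by array number together with cell source is the same fit, with 0 calls. There were also 0 calls under the 3 normalisations, the level filter, the intensity trend, an adjusted p under 0.10, every probe set on its own, and without each pair (smallest adjusted p from 0.128 to 0.699). Genes higher in all pairs numbered 1134 among the 6197 genes at or above the median level, 2919 of 20380 probe sets taken singly, 490 with at least 0.25 and 160 with at least 0.5 units in every pair, and 2891 to 3571 with a pair left out. Genes lower in all pairs numbered 1182, 3590, 460, 120 and 3220 to 3968 under the same settings. The 1-unit sets held 43 to 118 higher and 26 to 118 lower genes with a pair left out, where fewer pairs have to agree. Median centring split the same-sign genes 1713 higher to 2423 lower and cyclic loess 2089 to 1981. Of 121 genes followed, 2 changed direction, both with a pair left out: Nqo1, at 0.12 over all pairs, to between -0.22 (without the thymocyte pair) and 0.57 (without emigrants 1), and Gzma, at -0.70, to between 0.32 (without emigrants 2) and -1.39 (without emigrants 1); the cause was not tested.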
